A study of Mus musculus with 8 samples.

Results

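The fibroblast growth factor (FGF) signalling genes described here comprised the ligands Fgf2, Fgf7, Fgf9 and Fgf18, the receptors Fgfr1, Fgfr2 and Fgfr3, and the feedback genes Spry2, Spry4 and Etv5. They were chosen by their Entrez gene identifiers, and 10 of 10 were found among the 24235 genes with such an identifier on the array. The cells were follicular, mostly granulosa, cells from preantral follicles of 8-week-old female Swiss mice, with 5 mice pooled for each replicate, and were analysed on day 9 of culture. All cells received a pDsRed plasmid and 12 pmol of siRNA, either a control siRNA or one against Foxl2, the forkhead factor that maintains granulosa cell identity. All were kept in charcoal-treated serum, and either 100 nM estradiol (E2) or its vehicle was added 10 h before lysis. The labels give 24 h of growth between transfection and lysis, whereas the study's text places 24 h of siRNA before the treatment, and the sources used here do not settle which held. The siRNA (control or FOXL2) and the treatment (vehicle or E2) were crossed into 4 groups, each measured on 2 one-colour arrays. Because these are bulk RNA measurements, fewer cells of a type and less RNA per cell cannot be told apart.

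FGF ligands bind receptor tyrosine kinases together with heparan sulfate, and the receptors pass the signal through the RAS and MAP kinase cascade to transcription factors. Sprouty proteins, such as Spry2 and Spry4, restrain that cascade, and Etv5 is an ETS transcription factor that FGF signals commonly induce. In the ovary FGFs take part in exchanges between the oocyte, granulosa and theca cells, and FGF9 with FGFR2 favours testis over ovary fate in the fetal gonad.

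Values are log2 scaled signals, that is the processed signal of each array after scaling to a common 75th percentile, averaged over the probes of a gene before the log2 was taken, and are comparable between arrays but not between genes. A gene was tested where its median scaled signal was at least 10, and was called at a limma adjusted p under 0.05 over 15638 genes. The share of probes called well above background was 51.4% to 55.7% per array, replicate arrays correlated at 0.989 to 0.992 across genes, and no spot was saturated. The Foxl2 signal averaged over its probes was not lower on the arrays labelled FOXL2 siRNA. The study reported by qPCR of siRNA-treated cells that its siRNA pools lowered the targeted mRNAs. It described that qPCR with its other array experiment, on FOXL2 and nuclear receptor siRNAs, and not with the E2 experiment measured here. Foxl2 measured 13.46 and 13.01 (vehicle) and 12.94 and 12.76 (E2) under control siRNA, and 13.41 and 13.39 (vehicle) and 13.12 and 12.96 (E2) under FOXL2 siRNA. The arrays labelled FOXL2 siRNA overlapped the controls, with a mean difference of 0.18 (limma adjusted p = 0.334), although 1 of the 2 Foxl2 probes fell by 0.97 (limma adjusted p = 0.0199) and the other measured 0.18 (limma adjusted p = 0.364). The probe that fell was the dim one, at 5.47 to 7.00 over the arrays. The other measured 13.75 to 14.45 and makes up most of the averaged Foxl2 signal. The siRNA groups are therefore named by their labels. The E2 labels carry a doubt of their own. The study reported Hsd11b2, Tacc1, Angpt2 and Cbs as activated by E2, from the control siRNA conditions of the array experiment measured here. Yet they were lower with E2 on the arrays labelled control siRNA in 4 of 4 cases. On those labelled FOXL2 siRNA they were higher with E2 in 4 of 4. With control siRNA, the treatment labels thus conflict with what the study reported from the same experiment. E2 directions and the siRNA changes within vehicle and within E2 rest on these labels. The estimated mean over both treatments does not depend on which arrays of an siRNA received E2. Its SE and p-value stay the same if both replicates of an siRNA are turned together, but not if only 1 is.

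Across both treatments, Fgf18 and Fgfr3 were higher and Fgfr2 was lower on the arrays labelled FOXL2 siRNA than on those labelled control siRNA. Thus 3 of the 9 members tested were called, 2 upwards and 1 downwards, against 12.6% of all genes tested (6.41% upwards and 6.19% downwards). For the same 3 members the 4 FOXL2 siRNA arrays did not overlap the 4 control arrays, against 20.9% of all genes. The median change of the 9 members was 0.15 on the log2 scale and their median absolute change 0.44, whereas the median absolute change of all genes was 0.15. Within vehicle 1 member was called (Fgf18, against 6.57% of all genes), and within E2 2 members were called (Fgf18 and Fgfr3, against 4.39%). The limma fit behind the calls above did not use the replicate numbers. In an alternative fit same-numbered replicates were taken as pairs. With the replicate number as a block 6 members were called over both treatments (against 27.7% of genes), 3 within vehicle (against 18.7%) and 4 within E2 (against 14.9%). A rule taken from the methods for E2 targets and applied here to the siRNA comparisons as well, which asks for a log2 change of 1 or more, also exceeding 2 times the sum of both groups' SDs, passed Fgf18 within vehicle (against 2.94% of genes), Fgf18 and Fgfr3 within E2 (against 2.35%), and no member for E2 with control siRNA (against 0.454%) or with FOXL2 siRNA (against 0.217%).

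**Figure D1:**
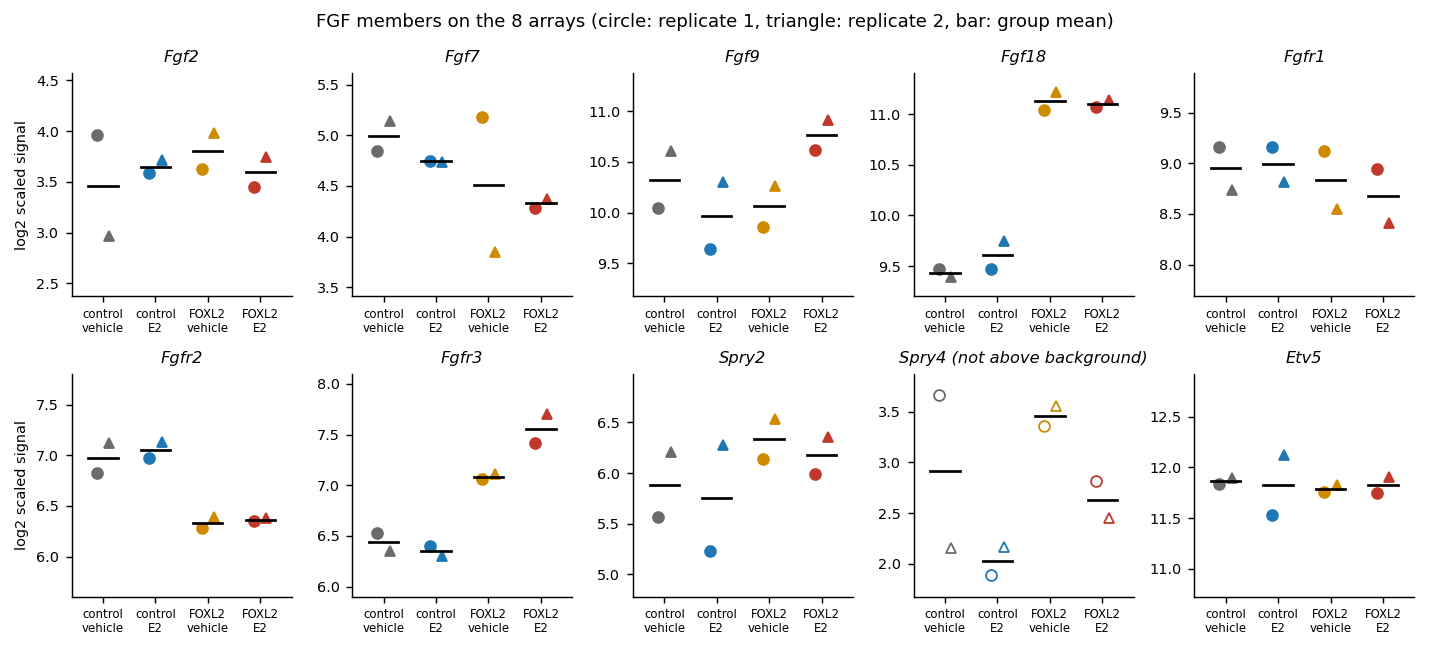
The log2 scaled signal of each of the 10 members is plotted for every array, by siRNA and treatment label, with circles for replicate 1, triangles for replicate 2, a bar for the group mean, open symbols for Spry4, which lay too close to background on all arrays, and panels that span the same number of log2 units. The Fgf18 arrays labelled FOXL2 siRNA lie between 11.04 and 11.22 and the control arrays between 9.39 and 9.74. The Fgf9, Fgfr1, Fgfr2, Spry2 and Etv5 replicates are split by their replicate number in every group.

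The windows of 250 bases upstream of the annotated start are printed for the 3 called members, and for Etv5 as the member whose window held a forkhead match. They are RefSeq sequences on GRCm38.p6, given 5′ to 3′ on the gene's strand, with a forkhead match (GTAAACA, either strand) in capitals and everything else in lower case. Fgf18 lies on the minus strand (chr11:33147401-33147650), Fgfr3 on the plus strand (chr5:33721474-33721723, the first of its windows), Fgfr2 on the minus strand (chr7:130266809-130267058) and Etv5 on the minus strand (chr16:22439571-22439820, the first of its windows).
Fgf18: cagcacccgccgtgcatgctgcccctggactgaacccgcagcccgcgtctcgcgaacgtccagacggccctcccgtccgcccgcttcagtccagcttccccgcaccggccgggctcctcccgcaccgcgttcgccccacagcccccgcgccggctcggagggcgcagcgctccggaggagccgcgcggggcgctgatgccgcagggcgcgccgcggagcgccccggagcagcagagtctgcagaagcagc
Fgfr3: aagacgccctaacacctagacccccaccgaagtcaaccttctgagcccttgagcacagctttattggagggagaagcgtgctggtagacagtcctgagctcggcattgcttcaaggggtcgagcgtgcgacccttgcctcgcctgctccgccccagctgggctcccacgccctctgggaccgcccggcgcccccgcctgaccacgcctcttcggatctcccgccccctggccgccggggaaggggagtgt
Fgfr2: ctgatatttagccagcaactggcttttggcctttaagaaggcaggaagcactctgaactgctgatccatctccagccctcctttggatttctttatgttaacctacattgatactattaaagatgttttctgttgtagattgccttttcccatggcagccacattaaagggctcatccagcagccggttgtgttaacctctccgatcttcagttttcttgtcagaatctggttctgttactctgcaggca
Etv5: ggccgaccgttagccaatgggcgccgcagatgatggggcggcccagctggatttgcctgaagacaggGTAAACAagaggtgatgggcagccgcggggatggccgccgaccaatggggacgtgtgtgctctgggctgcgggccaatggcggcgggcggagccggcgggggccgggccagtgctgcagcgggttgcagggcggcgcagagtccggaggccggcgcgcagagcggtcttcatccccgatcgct
The table held 10 windows, of 250 bases before to 50 after a start, for 8 of the members. Their GC content ranged from 42.7% to 78.7%, the highest being that of Fgf18, and the median over 32851 windows was 52.7%. The Etv5 match lay at position -183 from the start and was the only match to GTAAACA in the members' windows, while 3.65% of all windows held these letters. The forkhead motif reported by the study allows other letters at some positions, and those forms were not searched. The letters AGGTCA, which recur in estrogen response elements, were found at -47 in Fgf7 and at 21 in Spry2, and 16.3% of all windows held them. No member window held the ETS letters CCGGAAG or the AP-1 letters TGACTCA, which 8.86% and 5.20% of all windows held.

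Among the ligands, Fgf18, which signals mainly through FGFR3 and the mesenchymal receptor isoforms, was the member that differed most. Under control siRNA it measured 9.47 and 9.39 in vehicle and 9.47 and 9.74 in E2. On the arrays labelled FOXL2 siRNA it measured 11.04 and 11.22 with vehicle and 11.07 and 11.13 with E2. Every array labelled FOXL2 siRNA was thus above every control array, and vehicle and E2 arrays of the same siRNA lay close together. The mean rise was 1.60 on the log2 scale (SE 0.08, 95% interval 1.40 to 1.79, limma adjusted p = 0.000133), a 3.02-fold difference. Within vehicle the rise was 1.70 (SE 0.12, limma adjusted p = 0.000682, 3.25-fold) and within E2 it was 1.49 (SE 0.12, limma adjusted p = 0.00131, 2.82-fold). The difference between these rises, tested as an interaction, was -0.20 (95% interval -0.59 to 0.19). Both Fgf18 probes rose, by 1.58 (limma adjusted p = 0.000137) and 1.60 (limma adjusted p = 0.000197).

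The genes most like Fgf18 over the 8 arrays, by Pearson correlation among 13480 genes well above background on all of them, were Smpx (r = 0.995), Nod1 (r = 0.994) and Piezo1 (r = 0.994). These correlations describe arrays that fall into the siRNA groups and share them. On the arrays labelled FOXL2 siRNA Smpx was 2.65, Nod1 1.30 and Piezo1 0.68 higher on the log2 scale in the mean over both treatments.

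Fgf9, a ligand made by ovarian and testicular somatic cells, was called for the difference of its E2 responses with the replicate block and not without it. With control siRNA it measured 10.04 and 10.61 in vehicle and 9.64 and 10.30 in E2. On the arrays labelled FOXL2 siRNA it measured 9.86 and 10.27 in vehicle and 10.62 and 10.91 in E2. Replicate 2 was higher than replicate 1 in 4 of 4 groups, by 0.48 in the mean. Within replicate numbers, E2 minus vehicle was -0.40 and -0.31 with control siRNA and 0.76 and 0.65 with FOXL2 siRNA, so both pairs of one siRNA were opposite to both pairs of the other. The difference of these E2 responses was 1.06 (SE 0.38, 95% interval 0.18 to 1.94, limma adjusted p = 0.846), and was called with the replicate block (95% interval 0.75 to 1.37, limma adjusted p = 0.00178). The block also gave calls for E2 with FOXL2 siRNA (0.70, limma adjusted p = 0.00728, against 1.00 without the block), for FOXL2 siRNA with E2 (0.80, limma adjusted p = 0.000187, against 0.173) and for FOXL2 siRNA over both treatments (0.27, limma adjusted p = 0.0148, against 0.424). Within vehicle the difference between siRNAs was -0.26 (limma adjusted p = 0.678). The 0.80 within E2 became 0.47 without control siRNA E2 replicate 1 (limma adjusted p = 0.547).

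These values depend on the treatment labels of the control siRNA arrays. With those labels turned, an alternative chosen after seeing the data, both siRNAs had a positive E2 change of Fgf9, and the difference of its E2 responses was 0.34 (SE 0.38, limma adjusted p = 1.00; 0.777 with the replicate block). The Fgf9 change with FOXL2 siRNA became 0.10 within vehicle (limma adjusted p = 0.891) and 0.44 within E2 (limma adjusted p = 0.459; 0.0105 with the block). The difference of the E2 responses of Fgfr3 became 0.39 (SE 0.22, limma adjusted p = 1.00). Fgf18 stayed called within vehicle (1.52, limma adjusted p = 0.00177) and within E2 (1.67, limma adjusted p = 0.00144), as did Fgfr3 within E2 (1.12, limma adjusted p = 0.00989), and Fgfr3 was also called within vehicle (0.73, limma adjusted p = 0.0444). The members called were thus 2 within vehicle (against 4.67% of genes) and 2 within E2 (against 4.89%), with the block 3 (against 17.3%) and 4 (against 16.1%), and none in the difference (against 0.0% without and 0.0512% with the block).

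**Figure D2:**
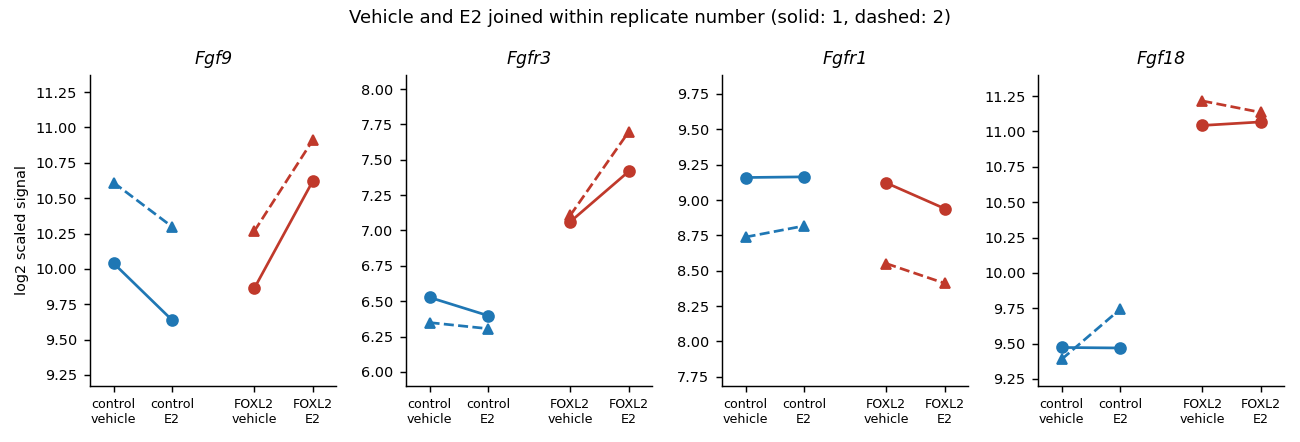
The log2 scaled signals of Fgf9, Fgfr3, Fgfr1 and Fgf18 are drawn with lines that join vehicle to E2 within a replicate number (solid for 1, dashed for 2), in blue for arrays labelled control siRNA and red for FOXL2 siRNA. The Fgf9 lines run down with control siRNA (-0.40 and -0.31) and up with FOXL2 siRNA (0.76 and 0.65), the Fgfr3 lines do so with smaller steps in the controls, and Fgf18 is separated by siRNA.

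The remaining ligands were dim. Fgf2, a broadly made ligand long studied as a granulosa cell growth factor, measured 2.96 to 3.97 with control siRNA and 3.45 to 3.98 with FOXL2 siRNA. The groups overlapped and differed by 0.15 (SE 0.30, 95% interval -0.55 to 0.84, limma adjusted p = 0.810), and 1 of its 2 probes stayed near background throughout. Fgf7, a ligand from mesenchymal cells that acts on the epithelial isoform of FGFR2, was well above background on 7 of the 8 arrays. It measured 4.74 to 5.14 with control siRNA and 3.84 to 5.18 with FOXL2 siRNA, which overlapped, and differed by -0.45 (SE 0.30, limma adjusted p = 0.395).

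Among the receptors, Fgfr3 rose and Fgfr2 fell on the arrays labelled FOXL2 siRNA. Under control siRNA Fgfr3 measured 6.53 and 6.35 in vehicle and 6.40 and 6.31 in E2. On the arrays labelled FOXL2 siRNA it measured 7.06 and 7.11 with vehicle and 7.42 and 7.70 with E2. All 4 arrays labelled FOXL2 siRNA were above the controls, and its E2 arrays were above its vehicle arrays. The mean rise was 0.93 (SE 0.11, 95% interval 0.67 to 1.19, limma adjusted p = 0.00204), a 1.90-fold difference, and 0.61 with normexp background correction (limma adjusted p = 0.00286). Within E2 it was 1.21 (SE 0.16, limma adjusted p = 0.00763, 2.31-fold), and that call was lost without control siRNA E2 replicate 1 (1.25, limma adjusted p = 0.0627), control siRNA E2 replicate 2 (1.16, limma adjusted p = 0.0619) or FOXL2 siRNA E2 replicate 2 (1.07, limma adjusted p = 0.0636). Within vehicle it was 0.65 (limma adjusted p = 0.0544), and was called with the replicate block (limma adjusted p = 0.00995).

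The 3 Fgfr3 probes did not behave alike. The brightest rose by 1.00 (SE 0.11, limma adjusted p = 0.00161), the second measured 0.35 (SE 0.23, limma adjusted p = 0.448), and the third stayed near background throughout. E2 minus vehicle for Fgfr3 was -0.13 and -0.04 within the replicate numbers with control siRNA and 0.36 and 0.59 with FOXL2 siRNA. The difference of the E2 responses was 0.56 (SE 0.22, 95% interval 0.04 to 1.08, limma adjusted p = 0.955), which did not pass the test.

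Fgfr2, the receptor whose isoforms divide the ligands between epithelium and mesenchyme, moved the other way. Its control siRNA arrays measured 6.83 and 7.12 in vehicle and 6.97 and 7.13 in E2. On the arrays labelled FOXL2 siRNA it measured 6.28 and 6.39 with vehicle and 6.35 and 6.38 with E2. Replicate 2 was higher than replicate 1 in 4 of 4 groups, by 0.15 in the mean. The 4 arrays labelled FOXL2 siRNA were all below the controls, at nearly the same level with either treatment. It fell by 0.66 on the log2 scale (SE 0.12, 95% interval -0.93 to -0.40, limma adjusted p = 0.00906), a 1.58-fold difference, and both probes fell, by 1.17 (limma adjusted p = 0.0111) and 0.56 (limma adjusted p = 0.0168). With normexp background correction the gene fell by 0.39 (limma adjusted p = 0.0110). The change was -0.64 within vehicle (limma adjusted p = 0.0632) and -0.69 within E2 (limma adjusted p = 0.0618), and each was called with the replicate block (limma adjusted p = 0.00828 and 0.00611). The probes were not matched to isoforms here, so the values of Fgfr2 and Fgfr3 refer to no particular isoform.

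Fgfr1, the receptor of most mesenchymal cells, measured 8.74 to 9.16 with control siRNA and 8.41 to 9.12 with FOXL2 siRNA. The ranges overlapped, and replicate 2 was lower than replicate 1 in 4 of 4 groups. The difference was -0.21 (SE 0.18, 95% interval -0.64 to 0.21, limma adjusted p = 0.517), and was called with the replicate block (limma adjusted p = 0.0398). Its 3 probes differed in sign, at 0.28, -0.28 and -0.31, and none passed the test.

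**Figure D3:**
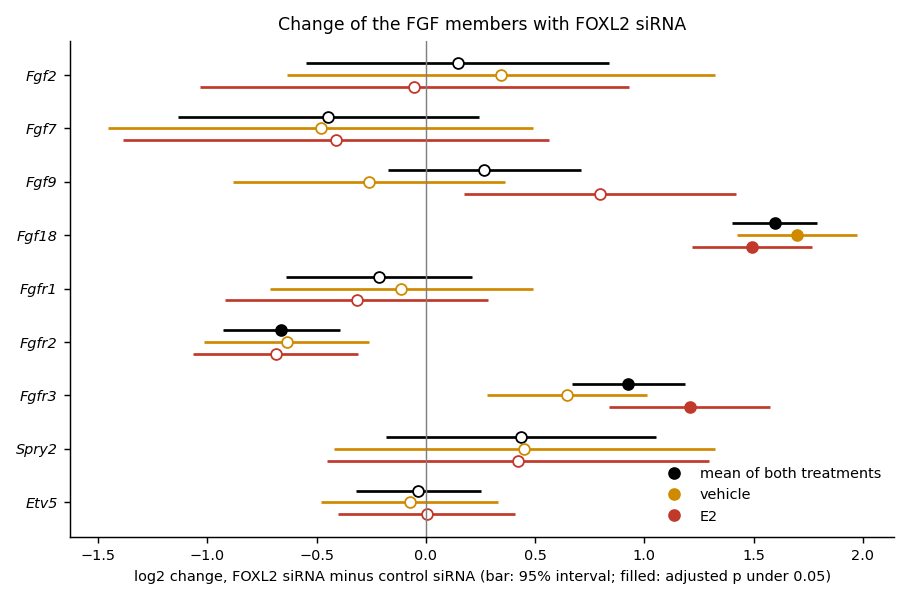
The log2 change on arrays labelled FOXL2 siRNA against those labelled control siRNA is plotted for the 9 members tested, as the mean of both treatments (black), within vehicle (orange) and within E2 (red), with 95% intervals from the limma fit without the replicate block and filled points where the adjusted p was under 0.05. Fgf18 and Fgfr3 lie to the right of 0 (means of 1.60 and 0.93) and Fgfr2 to the left (-0.66), while the intervals of the mean cross 0 for the other 6.

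None of the feedback genes passed the test. Spry2 measured 5.57 and 6.20 (vehicle) and 5.23 and 6.27 (E2) under control siRNA, and 6.14 and 6.54 (vehicle) and 5.99 and 6.36 (E2) under FOXL2 siRNA. Replicate 2 was higher in 4 of 4 groups, by 0.61 in the mean, and the siRNA groups overlapped. The difference was 0.44 (SE 0.27, 95% interval -0.18 to 1.06, limma adjusted p = 0.352), and was called with the replicate block (limma adjusted p = 0.0384). Etv5 measured 11.53 to 12.12 with control siRNA and 11.75 to 11.91 with FOXL2 siRNA, a difference of -0.03 (SE 0.12, 95% interval -0.32 to 0.25, limma adjusted p = 0.898). Spry4 was well above background on 0 of the 8 arrays (1.89 to 3.66) and was not tested.

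E2 called no member with either siRNA in the limma fit without the block, and few genes in all passed. The count was 0 of 9 members with control siRNA (against 0.0192% of all genes), 0 with FOXL2 siRNA (against 0.0128%) and 0 for the difference of the E2 responses (against 0.243%). At an unadjusted p under 0.05 the counts were 0 (against 4.58% of all genes), 2 (against 3.04%) and 2 (against 4.9%), namely Fgf9 and Fgfr3 in each of the last comparisons. The E2 changes of the 9 members ran from -0.36 (Fgf9) to 0.19 (Fgf2) with control siRNA and from -0.21 (Fgf2) to 0.70 (Fgf9) with FOXL2 siRNA. With the block Fgf9 was the only member called, for E2 with FOXL2 siRNA (against 0.614% of genes) and for the difference (against 2.12%), and none was called for E2 with control siRNA (against 1.16%). The 4 comparisons of FOXL2 siRNA with control siRNA or of E2 with vehicle share arrays, so their values are not independent of each other.

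The rest of the pathway was read from a list of 70 further genes, all on the array, of which 50 were well above background on every array, 13 on none, and 55 were tested. Over both treatments 11 of these passed, 3 upwards and 8 downwards, against 12.6% of all genes, and their median change was -0.01 against 0.00 for all genes. Of the 18 feedback inhibitors and targets tested, 4 fell and 1 rose. Of the 11 receptors and co-receptors, 2 fell and 1 rose. Of the 17 adaptors and kinases, 2 fell and 1 rose, and none of the 9 other ligands passed.

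Fos and Il17rd fell among the feedback genes and targets. Fos, an immediate early transcription factor, measured 7.19 to 7.79 with control siRNA and 5.75 to 6.43 with FOXL2 siRNA, without overlap. It fell by 1.41 (SE 0.14, limma adjusted p = 0.000957, 2.65-fold), and by 0.86 with normexp background correction (limma adjusted p = 0.000813). Il17rd, also called Sef and an inhibitor of FGF receptor signalling, measured 10.80 to 11.14 with control siRNA and 9.83 to 10.30 with FOXL2 siRNA, also without overlap. It fell by 0.91 (SE 0.09, limma adjusted p = 0.000801, 1.88-fold), by 0.68 within vehicle (limma adjusted p = 0.0186) and by 1.15 within E2 (limma adjusted p = 0.00396). Leaving out 1 array at a time ended neither call over both treatments, with adjusted p of at most 0.00706 and 0.00624.

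Egr1, another immediate early factor, fell by 0.63 (limma adjusted p = 0.0265) and Flrt3, a transmembrane partner of FGF receptors, by 0.75 (limma adjusted p = 0.0395; -0.47 and 0.0640 with normexp). Both depended on single arrays. The Egr1 call was lost in 4 of 8 fits without 1 array (control siRNA vehicle replicate 1, control siRNA E2 replicates 1 and 2, and FOXL2 siRNA E2 replicate 2; adjusted p up to 0.0840). The Flrt3 call was lost in 6 of 8, all but those without FOXL2 siRNA E2 replicate 1 or control siRNA vehicle replicate 2 (adjusted p up to 0.128). Ccnd1, the cyclin that carries mitogen signals into the cell cycle, rose by 1.58 (SE 0.33, limma adjusted p = 0.0186, 3.00-fold), from 6.20 to 7.06 with control siRNA to 7.34 to 8.80 with FOXL2 siRNA. Its call was lost without control siRNA E2 replicate 1 (1.37, adjusted p = 0.0685), control siRNA vehicle replicate 2 (1.62, adjusted p = 0.0503) or FOXL2 siRNA vehicle replicate 2 (1.36, adjusted p = 0.0651).

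Among co-receptors, Hspg2, the heparan sulfate proteoglycan perlecan, rose by 0.62 (limma adjusted p = 0.0130; 0.0510 without control siRNA E2 replicate 2). Fgfrl1, a receptor relative without a kinase domain, fell by 0.40, and Sdc1, the syndecan of epithelial surfaces, by 0.30. Within the cascade Mapk3 fell by 0.28 and Nras rose by 0.31. Spry1 and Fgf1 were higher on the arrays labelled FOXL2 siRNA without passing the test (1.40, limma adjusted p = 0.0679, and 1.63, limma adjusted p = 0.0773), and passed with the replicate block (limma adjusted p = 1.64e-05 and 0.00118). Dusp6, the phosphatase that FGF signals commonly induce, differed by -0.01 (95% interval -0.17 to 0.15, limma adjusted p = 0.943).

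Within vehicle 6 of the 55 passed (among them Fos, Egr1, Map2k1 and Il17rd downwards and Hspg2 upwards), which is 10.9% against 6.57% of all genes. Within E2 3 passed (Il17rd, Fos and Sdc1, all downwards), which is 5.45% against 4.39% and thus near the share of all genes. With the treatment labels of the control siRNA arrays turned, Fos and Il17rd passed in each and no other gene of the list did. Leaving out 1 array at a time changed the counts within vehicle and within E2, and lowered that over both treatments in most fits. The shares of all genes called in those fits are not given. Whether the count of the list fell more than that of all genes was therefore not tested. In the 3 E2 comparisons none of the 55 passed in limma, and 4, 2 and 5 had an unadjusted p under 0.05, against the 4.58%, 3.04% and 4.9% of all genes given above. With the replicate block 25 passed over both treatments (against 27.7% of genes).

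Some cell type markers differed between the siRNA labels. Of all genes tested, 12.6% were called over both treatments, 6.41% upwards and 6.19% downwards. The arrays of the 2 labels did not overlap for 20.9% of all genes. Of 11 granulosa markers 8 were well above background on all arrays, and Fshr and Amh, which define the cell type, on none. Of the 9 tested 2 fell, Fst by 2.02 (limma adjusted p = 0.000226) and Hsd17b1 by 1.47 (limma adjusted p = 0.00222), and the others were not called, at -0.75 (Cyp19a1) to 0.41 (Amhr2). The summed scaled signal of the granulosa markers was 116715 to 128396 on arrays labelled control siRNA and 123317 to 152153 on those labelled FOXL2 siRNA, which overlapped. The sum of 4 surface epithelium markers was 507 to 743 on arrays labelled control siRNA and 1762 to 2499 on those labelled FOXL2 siRNA, and Msln and Upk3b rose by 2.07 (limma adjusted p = 0.000133) and 1.47 (limma adjusted p = 0.00445). The 4 theca markers on the array summed to 3834 to 4841 and 5681 to 6626, with none of 3 tested called and Lhcgr not well above background. The sums overlapped between the siRNA labels for stroma (5355 to 10120 and 6750 to 14143), smooth muscle (3777 to 11975 and 3890 to 10742), endothelium (1098 to 1812 and 1581 to 1951), macrophages (468 to 511 and 488 to 633) and oocytes (103 to 133 and 108 to 130), and 6 of 7 oocyte markers were well above background on none. The part of these other cells in the changes of Fgf18, Fgfr2 and Fgfr3 was not tested.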

How the data were processed

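RNA was labelled with Cy3 and hybridised to 8 one-colour Agilent arrays on 1 slide. The deposited scanner files hold intensity values (per the file headers, Feature Extraction 11.5.1.1, processed signal after background subtraction), and the deposited series table holds log2 values that the authors scaled to each array's 75th percentile over the table's rows. After a constant per array was removed, 98.6% to 98.9% of its values equalled the scaled values within 0.001. Of 62976 spots, 3671 controls and 39 flagged probes were removed, which kept 55642 probes. The processed signal was divided by the array's 75th percentile (275 to 367) and multiplied by their common mean, the scaled signals were averaged over the probes of an Entrez identifier, and the mean was taken to log2, so the brightest probe weighs most. Of 24235 identifiers 22352 were named from RefSeq. All 8 arrays entered 1 limma fit with an intensity trend (limma 3.58.1, R 4.3.3; 4 residual degrees of freedom) with Benjamini-Hochberg adjustment over genes, for 6 comparisons, and the pipeline was tested on simulated data. Arrays are the units of replication, at 2 per group, and the spread was estimated for each gene.

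The main fit did not use the replicate numbers. In the replicate block and in the differences within replicate numbers they were taken as pairs. The labels give them as biological replicas of pooled mice, and deviations from the group mean correlated at 0.33 to 0.44 between groups. The genes named were Foxl2, the members, up to 6 other pathway genes called per comparison, listed markers, and the 3 genes most like Fgf18. Nras, Fgfrl1, Mapk3, Fgf1, Spry1 and Dusp6 were named after their values were seen, and 1 called gene is not reported here by name. The members and gene lists were chosen with earlier results of these data known. The study's rule for E2 targets was run as an alternative, also on the siRNA comparisons, as were normexp (offset 50), quantile normalization, other filters, the brightest probe, the deposited table, no trend, the block, leaving out arrays and, added after seeing the data, turned treatment labels of the control siRNA arrays. Printed promoters are those of RefSeq, without downstream bases.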

Additional observations from a re-analysis of the deposited data

Results flagged for a closer look

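The E2 response was opposite on the arrays labelled control siRNA and FOXL2 siRNA, in both replicate pairs of each, for 3 members. The share of all genes with this pattern of signs was not counted. The number of members is therefore not read as a result about the members as a set. For Fgf9 the difference of the E2 responses was 1.06 on the log2 scale (interaction in limma, adjusted p = 0.846; 0.00178 with the replicate block). For Fgfr3 it was 0.56 (limma adjusted p = 0.955). For Fgfr1 it was -0.20 (limma adjusted p = 1.00), with control differences of 0.00 and 0.08 that lie close to 0. Hsd11b2, Tacc1, Angpt2 and Cbs, reported by the study from this experiment as activated by E2, were lower with E2 on the control siRNA arrays. All 4 were higher with E2 on the FOXL2 siRNA arrays. The opposite responses of the members rest on the treatment labels of the control siRNA arrays. With those labels turned, an alternative chosen after seeing the data, E2 was above vehicle under both siRNAs for Fgf9 and Fgfr3, and the differences became 0.34 for Fgf9 (limma adjusted p = 1.00; 0.777 with the block), 0.39 for Fgfr3 and -0.12 for Fgfr1.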

How the results depend on the processing

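Fgf18, Fgfr3 and Fgfr2 stayed called over both treatments under each alternative run, with an adjusted p of at most 0.0453 (Fgfr2 without control siRNA E2 replicate 2), while normexp lowered the change of Fgfr3 to 0.61 and that of Fgfr2 to -0.39. With the replicate block the counts of members called became 6 over both treatments, 3 within vehicle, 4 within E2, 1 for E2 with FOXL2 siRNA and 1 for the difference of E2 responses, and those of other pathway genes 25, 19 and 14, and 1 (Map2k1) each for E2 with control siRNA and for the difference. The block changed no call of a named member beyond those given in the text. Within vehicle quantile normalization and the brightest probe each called 2 members. With the treatment labels of the control siRNA arrays turned, chosen after seeing the data, 2 members and 2 pathway genes were called within vehicle, with the block 3 and 20 within vehicle and 4 and 17 within E2, and the Fgf9 change within vehicle became 0.10. Without the intensity trend 5, 1 and 1 pathway genes were called over both treatments, within vehicle and within E2, and with only the groups compared 3 and 1 within vehicle and E2. Leaving out 1 array gave 1 to 2 members within E2, and 5 to 11, 1 to 7 and 1 to 3 pathway genes in these comparisons. No share of all genes called is given for quantile normalization, the brightest probe, no trend, only the groups compared or 1 array left out. Whether the counts of members and pathway genes under those settings moved more than those of all genes was therefore not tested. Among uncalled members the sign changed over both treatments for Etv5 (0.0099 with normexp; -0.18 to 0.11 without 1 array) and Fgf2 (-0.11 to 0.40 without 1 array), and within vehicle for Fgf9 (-0.55 to 0.0231 without 1 array). The cause was not tested. The rule taken from the methods passed the same members after centring within replicate numbers. A fit of only the groups compared does not apply to the mean or the difference, and centring within replicate numbers gives the block's estimates and was not refitted.

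Signal over background limits Spry4, 1 Fgf2 probe and 1 Fgfr3 probe, which have only bounds. With 2 arrays per group the within-treatment tests rest on 4 residual degrees of freedom shared by all groups, and an array left out leaves a lone sample that is assumed to vary like the other groups.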
